A study of Homo sapiens with 4 samples.

Results

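The genes examined here are 10 core members of the Notch pathway, measured in LN229 cells after knockdown of *SOX2*. They are the receptor genes *NOTCH1*, *NOTCH2* and *NOTCH3*, the ligand genes *JAG1*, *JAG2*, *DLL1* and *DLL3*, and the target genes *HES1*, *HEY1* and *HEY2*. They were chosen by name, as gene probes whose symbol on the array, or one of several symbols, equals a member. The rule itself uses no signal, but the list was drawn up with earlier results of these data known. This gave 13 of 33096 gene probes on each array, for 10 of 20481 gene symbols. LN229 is an established human glioblastoma line that was grown in DMEM. One group was transfected with siRNA against *SOX2*, a transcription factor gene of stem cells, and the control group (mock knockdown) with a siRNA that has no target. Each group has 2 arrays, which the study's methods describe as separate transfections, and the labels name no further treatment or genotype for either group. The knockdown was transient, and the methods name a pair of *SOX2* siRNAs without stating which was used for the arrays. Each array was a 1-colour chemiluminescent oligonucleotide array hybridised with cRNA from 250 ng of total RNA.

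Notch is a receptor that signals between neighbouring cells. A ligand of the Jagged or Delta-like family on one cell binds the receptor on the next, whereupon the receptor is cut by an ADAM protease and then by gamma-secretase, and its intracellular part enters the nucleus. There it joins the DNA-binding protein RBPJ and a Mastermind coactivator and turns on genes such as the *HES* and *HEY* genes, which encode transcriptional repressors of the bHLH family. In neural tissue the pathway is known for keeping progenitor cells undifferentiated, and it has been studied in glioma for that reason.

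The start regions of *HES1* and *HEY2* are shown because both target genes carry the core RBPJ motif there, and their values are set out below. The letters TGGGAA are the core of the RBPJ motif and were searched on both strands of RefSeq promoter windows (GRCh38.p14) from 250 bases before to 30 bases after the start of the gene. The windows are written 5′ to 3′ along the gene, which is on the plus strand in both cases, and capitals mark TGGGAA or its reverse complement. The *HES1* window is chr3:194135898-194136177 and the *HEY2* window chr6:125749382-125749661.
HES1: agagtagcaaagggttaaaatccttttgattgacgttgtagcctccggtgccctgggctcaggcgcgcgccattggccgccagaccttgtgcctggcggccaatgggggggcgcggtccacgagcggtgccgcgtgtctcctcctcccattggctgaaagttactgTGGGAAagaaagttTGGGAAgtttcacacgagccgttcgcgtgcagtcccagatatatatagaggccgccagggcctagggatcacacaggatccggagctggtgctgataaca
HEY2: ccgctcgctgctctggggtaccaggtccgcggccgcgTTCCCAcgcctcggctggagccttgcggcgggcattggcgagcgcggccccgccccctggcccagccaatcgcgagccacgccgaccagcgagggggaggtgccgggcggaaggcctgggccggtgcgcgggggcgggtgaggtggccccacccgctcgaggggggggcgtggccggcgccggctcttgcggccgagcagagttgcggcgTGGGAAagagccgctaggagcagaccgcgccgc
The *HES1* window holds 2 matches, which begin 84 and 70 bases before the start and lie on the same strand. In *HEY2* the 2 matches begin 213 and 3 bases before the start and lie on opposite strands. Of the 7 member promoters found in the table, 2 hold the motif, and so do 22.8% of all 35116 windows of this length. The windows of *HEY1*, *DLL1* and *DLL3* were not found and could not be searched. The letters ATTGT, which are part of the SOX motif, were found on neither strand of any of the 7 windows and in 26.4% of all windows. A match describes the letters alone, and these arrays measured no binding. The study mapped *SOX2* binding in LN229 cells by ChIP-seq, and those data were not used here.

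Signals are printed as multiples of the array's own 75th percentile over gene probes, and S/N is the signal-to-noise ratio that the scanner files list. A probe was kept if 1 group or both had S/N over 3 in each replicate, which left 21256 of 32886 probes without a quality flag. Between 63.8% and 69.4% of the probes had S/N over 3 on the 4 arrays, and their number limits the precision of every value. No batch is named in the labels. The treatment text of the labels speaks of SW620, a line from colon cancer, and the other labels of LN229. Of 8 colon epithelium markers, 1 had S/N over 3 on all 4 arrays (*VIL1*, on 1 of its probes). On no array did 3 of them have it, among them *CDH1* and *KRT20*. *CDX2* (S/N 4.38 and 3.18) and *LGALS4* (5.2 and 8.2) had it on both mock arrays and on neither *SOX2* knockdown array. *EPCAM* and *CEACAM5* had it on 1 array each. The summed signal of the 8 markers was 0.311 to 0.335 in mock knockdown and 0.213 to 0.354 after *SOX2* knockdown. Of 6 markers of a mesenchymal glioblastoma line 5 were measured on all 4 arrays, while *FN1* had S/N over 3 on 2 arrays. Of 5 astroglial markers 4 were measured on all 4 arrays, *AQP4* being the one that was not above background on any array. Of 3 endothelial markers none had S/N over 3 on all 4 arrays and 2 had it on no array.

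The siRNA target *SOX2* itself had a signal of 0.467 and 0.701 in mock knockdown against 0.209 and 0.149 after *SOX2* knockdown. Its S/N was 5.17 and 13.56 in mock knockdown and 3.17 and 3.06 after *SOX2* knockdown, the latter just over the limit of 3 used below. The groups did not overlap, with a ratio of 0.307 and a log2 change of -1.69 (SE 0.28, adjusted p 0.117, limma with Benjamini-Hochberg over all probes kept).

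Of the 13 member probes, 10 were kept, standing for 8 genes. *HEY2* was the one member more than 2-fold different, and it was lower after *SOX2* knockdown. The ligand gene *JAG1*, the receptor gene *NOTCH1* and the target gene *HEY1* were higher by 1.48-fold to 1.79-fold with separated groups, while *NOTCH2* and *HES1* differed by at most 1.04-fold. By the 2-fold cutoff, 1 of 10 member probes passed, where 2.61% of all probes kept did (1.57% higher and 1.04% lower). An unadjusted p under 0.05 in limma was reached by 4 of 10 member probes (3 higher, 1 lower), against 17.1% of all probes (7.9% higher and 9.16% lower). In the same 4 probes the groups did not overlap, which was seen in 47% of all probes (21.2% higher and 25.8% lower). No member passed an adjusted p of 0.05 (0 of 10, limma with Benjamini-Hochberg over all probes kept), nor did any of the 21256 probes, of which 3626 had an unadjusted p under 0.05. The median log2 change of the 10 kept member probes was 0.06, and that of all probes kept was -0.0012. With 10 probes, each count turns on 1 or a few genes, and nothing particular to the list is read from it.

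**Figure D1:**
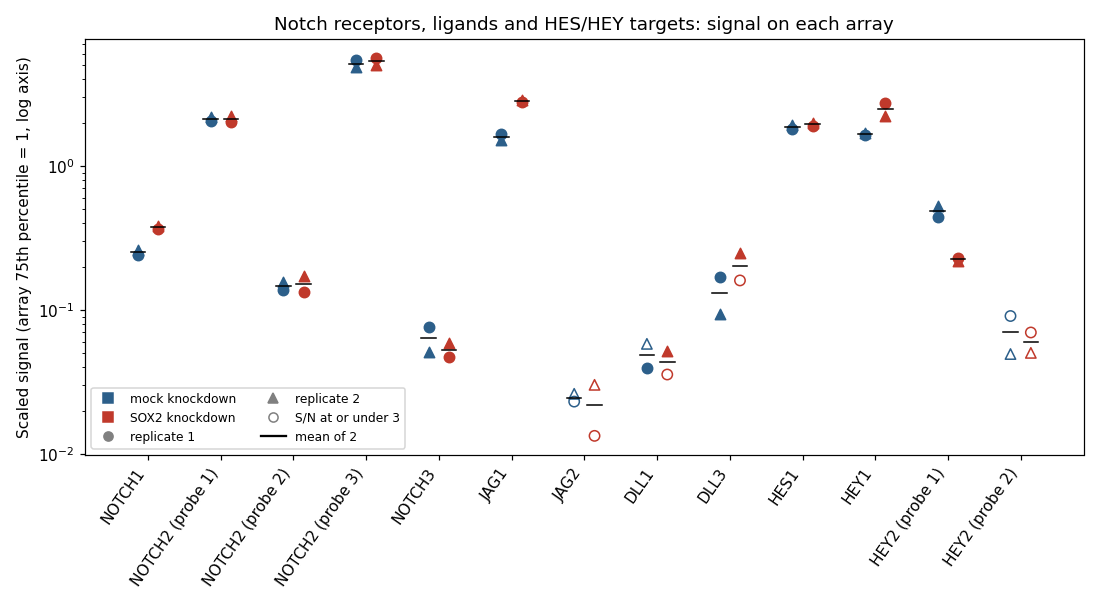
Scaled signal of the 13 member probes on each of the 4 arrays (log axis, array 75th percentile = 1), with mock knockdown in blue and *SOX2* knockdown in red, circles for replicate 1, triangles for replicate 2, open symbols where S/N was 3 or less, and a bar at the mean of 2 arrays. *JAG1*, *NOTCH1* and *HEY1* sit higher after knockdown, *HEY2* probe 1 lower, and *JAG2* and *HEY2* probe 2 are open on all 4 arrays.

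Among the receptors, *NOTCH1* (gene ID hCG1818285.2) is the founding member and is known to be active in neural progenitors. Its signal was measured as 0.243 and 0.262 in mock knockdown and 0.365 and 0.384 after *SOX2* knockdown. Both knockdown arrays lay above both mock arrays, and the gap between the groups was wider than that within either. The means were 0.252 ± 0.0135 and 0.375 ± 0.0135 (SD, n = 2 per group), a ratio of 1.49 and a log2 change of 0.57 (SE 0.13, 95% interval 0.22 to 0.92). The unadjusted p was 0.00937 and the adjusted p 0.161 (limma, Benjamini-Hochberg). Without *SOX2* knockdown replicate 1 or 2 the unadjusted p of *NOTCH1* was no longer under 0.05.

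*NOTCH2* (hCG37617.3), a receptor that is often abundant in glial cells, was measured by 3 probes, and none of them separated the groups. The probe annotated to *NOTCH2* alone gave 5.41 and 4.86 in mock knockdown and 5.64 and 5.04 after *SOX2* knockdown. Its log2 change was 0.06 with a 95% interval from -0.33 to 0.44. The other 2 probes are annotated to *NOTCH2* and *NOTCH2NL*, a near-identical partial copy they cannot tell apart, and changed by -0.01 (SE 0.13) and 0.04 (SE 0.18) on the log2 scale. S/N was 5.28 or more for all 3 probes on each array.

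The receptor gene *NOTCH3* (hCG38585.3), known from vascular smooth muscle and some gliomas, gave 0.0759 and 0.0509 in mock knockdown and 0.0475 and 0.0587 after *SOX2* knockdown. The groups overlapped, and mock 1 was the highest of the 4 arrays. The log2 change of -0.23 (SE 0.25) had an interval from -0.91 to 0.44, which covers a decrease of nearly 2-fold as well as no change. Its S/N was between 3.72 and 15.7.

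Of the ligands, *JAG1* (hCG38131.3) was the one with separated groups. *JAG1* encodes Jagged1, a membrane-bound ligand that activates Notch receptors on adjacent cells. Its signal was measured as 1.66 and 1.503 in mock knockdown and 2.78 and 2.87 after *SOX2* knockdown. The knockdown arrays were close together, and both were well above the mock arrays. The ratio of the means was 1.79 (1.58 ± 0.112 against 2.83 ± 0.0621, SD, n = 2 per group) and the log2 change 0.84 (SE 0.13, 95% interval 0.48 to 1.19). The unadjusted p was 0.00226 and the adjusted p 0.111 (limma, Benjamini-Hochberg). Over the alternatives run, the log2 change of *JAG1* lay between 0.77 and 0.94, and its unadjusted p was under 0.05 in each of them.

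*DLL3* (hCG43364.3), a divergent Delta-like protein that is known to hinder rather than activate Notch and is expressed in proneural glioma, was measured with wide spread. The mock arrays gave 0.168 and 0.0930 and the *SOX2* knockdown arrays 0.160 and 0.247, so the groups overlapped. Its S/N was 3.23 and 3.53 in mock knockdown, just over the limit, and 2.57 and 6.23 after knockdown, so it was kept through the mock group alone. The log2 change was 0.67 (SE 0.38), with an interval from -0.34 to 1.67 and an adjusted p of 0.468 (limma, Benjamini-Hochberg). Without mock replicate 1 the change of *DLL3* was 1.10 and its ratio 2.19, and without mock replicate 2 the change was 0.24. The unadjusted p of *DLL3* was 0.143 (limma) but was under 0.05 in several alternatives, among them 0.00583 with a crossed replicate block that pairs mock 1 with *SOX2* knockdown 2, a pairing the labels do not give.

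The other two ligand genes were dim. *DLL1* (hCG14606.3), an activating ligand, gave 0.0396 and 0.0581 in mock knockdown and 0.0356 and 0.0520 after *SOX2* knockdown, with S/N over 3 on 1 array of each group, and was not kept. *JAG2* (hCG1748359.2), a Jagged ligand like *JAG1*, had S/N of at most 2.19 on any array and was not above background in either group, so no fold is given.

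**Figure D2:**
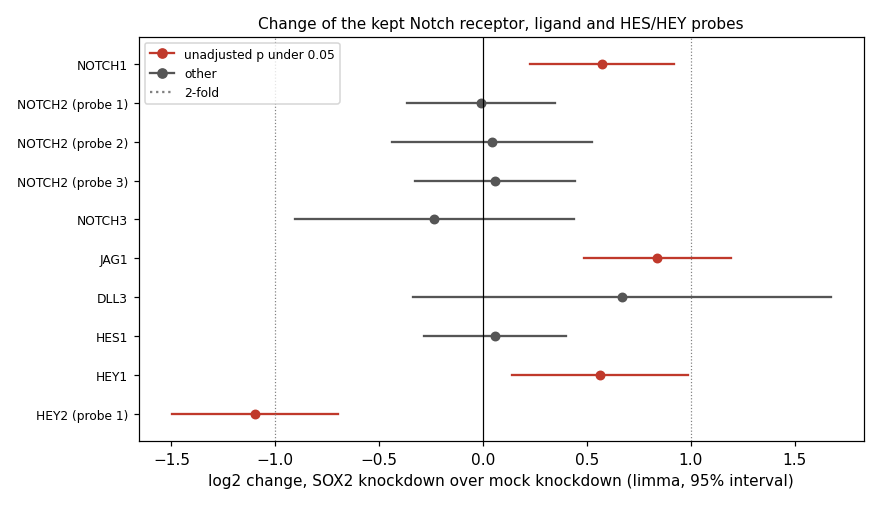
log2 change of the 10 kept member probes, *SOX2* knockdown over mock knockdown, from limma with 2 arrays per group, with 95% intervals as bars and dotted lines at 2-fold. The intervals of *NOTCH1*, *JAG1*, *HEY1* and *HEY2* probe 1 (red, unadjusted p under 0.05) do not cross 0, and that of *DLL3* is the widest, from -0.34 to 1.67.

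The 3 target genes each gave a different result. *HES1* (hCG16317.2), the best known target of active Notch in progenitor cells, gave 1.81 and 1.92 in mock knockdown and 1.90 and 1.98 after *SOX2* knockdown. The groups overlapped, and the whole range over the 4 arrays was narrow. The log2 change was 0.06 (SE 0.13) with a 95% interval from -0.28 to 0.40, and S/N was 44.8 or more on each array.

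*HEY1* (hCG19927.3), a repressor of the same family that is induced by Notch in many cell types, was higher after *SOX2* knockdown. Its signal was measured as 1.65 and 1.68 in mock knockdown and 2.73 and 2.22 after knockdown. Both knockdown arrays were above both mock arrays, although they lay farther apart from each other than the mock arrays did. The ratio of the means was 1.48 and the log2 change 0.56 (SE 0.16, 95% interval 0.14 to 0.99), with an unadjusted p of 0.0202 and an adjusted p of 0.207 (limma, Benjamini-Hochberg). Without mock replicate 1, mock replicate 2 or *SOX2* knockdown replicate 1 the unadjusted p of *HEY1* was not under 0.05.

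*HEY2* (hCG19992.3), which is known for its part in heart and vessel development and can pair with HES proteins, was lower after *SOX2* knockdown on probe 1 of its 2 probes. Probe 1 gave 0.442 and 0.525 in mock knockdown and 0.230 and 0.220 after *SOX2* knockdown. Both knockdown arrays were at about the same level, under the lower of the mock arrays by a wide margin, and S/N was 15 or more on each array. The means were 0.483 ± 0.0583 and 0.225 ± 0.00725 (SD, n = 2 per group), which is 2.15-fold lower with *SOX2* knocked down. The log2 change was -1.10 (SE 0.15, 95% interval -1.499 to -0.70), with an unadjusted p of 0.00122 and an adjusted p of 0.101 (limma, Benjamini-Hochberg). In a bulk RNA sample, fewer cells that express *HEY2* and less *HEY2* RNA per cell cannot be told apart.

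The 2-fold call of *HEY2* stood close to the cutoff. With both probes averaged by gene ID the log2 change was -0.96, with normexp background correction it was -0.88, and without mock replicate 2 it was -0.98, each just under 2-fold. The direction was the same in each alternative run, from -1.22 to -0.88. *HEY2* probe 2 gave 0.0908 and 0.0494 in mock knockdown and 0.0698 and 0.0503 after *SOX2* knockdown. With S/N of at most 0.78 it was not above background in either group, and no fold is given for it.

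**Figure D3:**
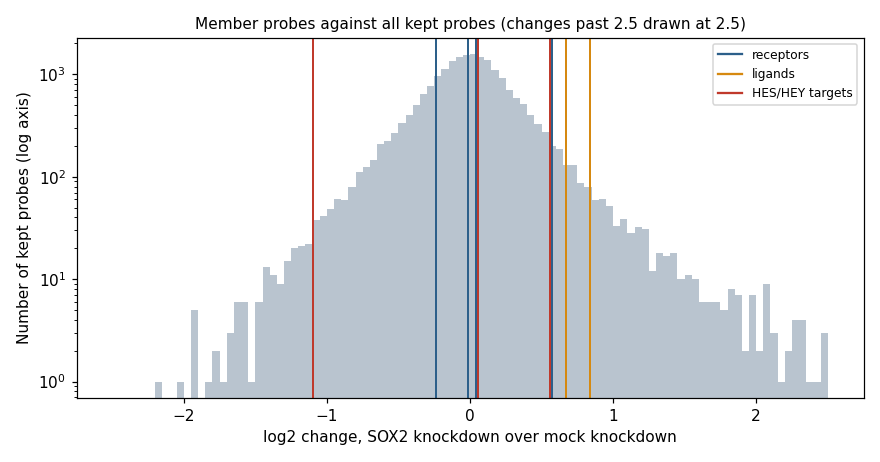
Histogram of the log2 change of all 21256 probes kept (log axis), with vertical lines at the 10 kept member probes, receptors in blue, ligands in orange and HES/HEY targets in red. *HEY2* at -1.10 lies to the left of the bulk, *JAG1* at 0.84 to the right, and the *NOTCH2* and *HES1* lines fall at the centre.

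The rest of the pathway was taken from a list of 55 genes, of which 54 were found on the arrays by 64 probes, and 55 of the probes were kept. By the 2-fold cutoff 2 of 55 passed (2.61% of all probes), both higher. An unadjusted p under 0.05 was reached by 11 of 55, or 20% against 17.1% of all probes, 6 higher and 5 lower. The 6 include *ATOH1*, which was kept only through the *SOX2* knockdown group, where it was higher, and is no support for a change. With S/N over 3 on all 4 arrays, where fewer than 55 probes of the list were tested, the count was 10. In that setting 3419 of all 19461 probes had such a p in limma. The list's median log2 change was -0.09. At an adjusted p of 0.1 limma (Benjamini-Hochberg) called 1 of 55, where 1.13% of all probes were called (0.757% higher and 0.376% lower).

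The 2 genes over 2-fold were *MFNG* and *NOTCH4*. *MFNG* (hCG41836.3) encodes Manic fringe, a glycosyltransferase that adds sugars to Notch receptors and alters their choice of ligand. It gave 0.365 and 0.321 in mock knockdown and 0.800 and 0.730 after *SOX2* knockdown. Both knockdown arrays were far above both mock arrays, a ratio of 2.23 and a log2 change of 1.16 (SE 0.14), with an adjusted p of 0.0945 (limma, Benjamini-Hochberg). Of the other fringe genes, *RFNG* was measured on each array and overlapped between the groups, and *LFNG* was not kept.

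*NOTCH4* (hCG2001537), the remaining Notch receptor, is best known from endothelial cells. Its probe gave 0.762 and 0.932 in mock knockdown and 1.79 and 1.77 after *SOX2* knockdown. The groups were well separated, with a ratio of 2.10, a log2 change of 1.08 (SE 0.16) and an adjusted p of 0.105 (limma, Benjamini-Hochberg). Without mock replicate 1 the change was 0.93, under 2-fold. The gene ID of *NOTCH4* is shared by 6 probes with 6 different symbols, among them *AGER* and *PBX2*, and with all of them averaged the log2 change was 0.02, so the result rests on the single probe that carries the symbol *NOTCH4*. The 3 endothelial markers had a summed signal of 0.0447 to 0.0513 in mock knockdown and 0.0341 to 0.0603 after *SOX2* knockdown, and *CDH5* and *TEK* were on no array above background.

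Of the proteins that cut the receptor, all 11 kept probes, standing for 9 genes, had log2 changes below 0, from -0.82 to -0.05. An unadjusted p under 0.05 in limma was reached by 3 of them. Of all probes kept, 50.2% were below 0 and 9.16% were lower at that p. The groups were separated in 7 of the 11, all lower, where 25.8% of all probes were separated and lower. *FURIN*, the convertase that cleaves the receptor precursor, gave 7.98 and 7.75 in mock knockdown and 5.26 on each *SOX2* knockdown array, a ratio of 0.669. *ADAM10*, the protease that cuts the receptor once a ligand has bound, gave 2.37 and 2.27 against 1.62 and 1.52, a ratio of 0.676. The second of 2 probes of *NCSTN*, which encodes the gamma-secretase subunit nicastrin, gave 1.17 and 1.26 against 0.7495 and 0.634, a ratio of 0.568. In each of these the groups were separated, with log2 changes of -0.58 (SE 0.12), -0.56 (SE 0.13) and -0.82 (SE 0.15) and adjusted p of 0.147, 0.161 and 0.125 (limma, Benjamini-Hochberg). The first *NCSTN* probe overlapped between the groups, as did *PSEN2* and both *APH1A* probes. All 11 values were below 0 under every other scaling run, but 3 of 11 were above 0 with normexp background correction, and 1 or 2 of 11 when any 1 array was left out. With 1 array left out, the log2 change lay between -0.94 and -0.70 for the second *NCSTN* probe. It lay between -0.60 and -0.56 for *FURIN* and between -0.61 and -0.52 for *ADAM10*. Counts at that p are not given for that case, in which 1 group has no replicate.

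Of 5 kept probes of the DNA-binding partner and its coactivators, 1 had an unadjusted p under 0.05 in limma, against 17.1% of all probes. *RBPJ*, listed on the array as *RBPSUH*, gave 1.92 and 1.75 in mock knockdown and 2.01 and 1.89 after *SOX2* knockdown, overlapping groups with a log2 change of 0.09 (SE 0.13). *MAML1* and *SNW1* also overlapped. The first of 2 probes of the coactivator gene *MAML2* gave 0.112 and 0.0930 against 0.0712 and 0.0520, a log2 change of -0.75 (SE 0.22, adjusted p 0.213, limma with Benjamini-Hochberg), while its second probe overlapped between the groups. Over the alternatives run, the log2 change of the first *MAML2* probe lay between -0.97 and -0.45. With 1 array left out it lay between -0.97 and -0.52.

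Among the corepressors, 1 of 10 kept probes had an unadjusted p under 0.05 in limma, where 17.1% of all probes had one. It was that of *TLE2*, a Groucho family protein that HES proteins recruit. It gave 0.342 and 0.314 in mock knockdown and 0.191 and 0.181 after *SOX2* knockdown. The groups were clearly apart, with a ratio of 0.569 and a log2 change of -0.81 (SE 0.13, adjusted p 0.114, limma with Benjamini-Hochberg). The related *TLE4* was on the other side of 0, with a log2 change of 0.36 (SE 0.15).

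Of the negative regulators and turnover factors, 2 of 10 kept probes had an unadjusted p under 0.05 in limma, both higher, which is 20% against 17.1% of all probes (7.9% higher). With 1 array left out fewer of all probes reached that p, and 1 group had no replicate, so no count is given for that case. *ITCH*, a ubiquitin ligase that marks Notch for degradation, gave 0.497 and 0.568 in mock knockdown and 0.882 and 0.846 after *SOX2* knockdown on its first probe, a ratio of 1.62 and a log2 change of 0.70 (SE 0.14, adjusted p 0.138, limma with Benjamini-Hochberg). The other *ITCH* probe overlapped between the groups. *FBXW7*, named here after its values were seen, recognises the intracellular part of Notch for degradation and had a log2 change of 0.42 (SE 0.13, adjusted p 0.229, limma with Benjamini-Hochberg). *NUMB* differed by -0.03 on the log2 scale. Among the noncanonical and remaining ligands, *DNER*, an atypical Notch ligand of neurons, gave 0.578 and 0.594 against 0.935 and 0.738 and a log2 change of 0.50 (SE 0.17, adjusted p 0.253, limma with Benjamini-Hochberg). Its unadjusted p of 0.0354 was lost in 9 of the alternatives, among them leaving out mock replicate 1, mock replicate 2 or *SOX2* knockdown replicate 1, where the change was as low as 0.33.

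**Figure D4:**
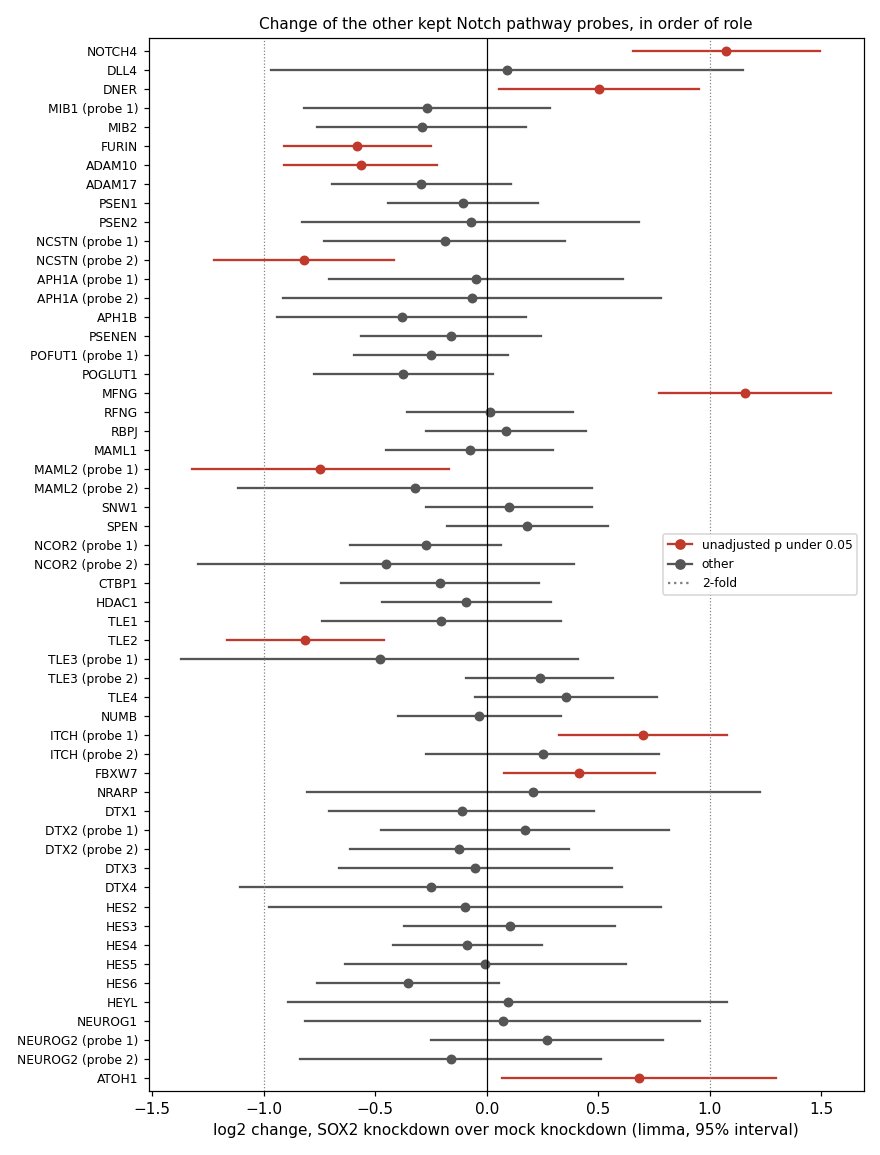
log2 change of the 55 other kept Notch pathway probes, *SOX2* knockdown over mock knockdown, from limma with 2 arrays per group, in order of role from receptor and ligands at the top to proneural genes at the bottom, with 95% intervals as bars and dotted lines at 2-fold. *MFNG* at 1.16 and *NOTCH4* at 1.08 are the points past the dotted line, and the 11 probes from *FURIN* to *PSENEN* all lie left of 0.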

How the data were processed

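A total of 4 scanner files and 1 value table of the series were used. The deposited intensity columns hold the chemiluminescent signal of each feature on a linear scale as the array software wrote it (normalized signal, assay-normalized signal and raw reading). The deposited S/N column was read as a score of signal over its error. The authors' value table holds a ratio per probe, normalized in GeneSpring per chip and per gene. The software's version is not given in the sources used here.

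Only gene probes were used, without the 210 that any array marked with a flag value of at least 5000. The normalized signal was divided by the array's 75th percentile, floored at 0.01, and log2 was taken. Single probes were compared, with the study's 2-fold cutoff of replicate means and with limma 3.58.1 in R 4.3.3 (lmFit and eBayes, two-sided, no block, Benjamini-Hochberg over all 21256 probes kept). Intervals are 95% intervals from limma. The fit was tested on simulated data. Samples were grouped by source name, and titles gave the replicate number. Symbols of the other pathway genes were matched directly, by accession or by RefSeq synonym. The genes named are the members, *SOX2*, *NOTCH4* and, of the other pathway probes with separated groups, the 5 with the largest change in each direction. Any other gene of the pathway list that is named was picked after its values were seen. Members and lists were chosen with earlier results of these data known. The probes' sequences were not used here.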

Additional observations from a re-analysis of the deposited data

How the results depend on the processing

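The 2-fold count over all probes was 554. It was 220 with normexp (offset 50), 363 with a floor of 0.05, 1373 without an S/N filter, 302 where each of the 4 arrays had S/N over 3, 2234 at 1.5-fold and 119 at 3-fold, and between 782 and 1192 with 1 array left out. For the member probes the count of 1 became 0 with normexp, with probes averaged by gene ID and at 3-fold, 3 at 1.5-fold, and 0 to 2 with 1 array left out (0 without mock replicate 2, and 2, *HEY2* and *DLL3*, without mock replicate 1). The count of 2 other pathway probes became 1 with normexp, 7 at 1.5-fold and 0 at 3-fold. At an adjusted p of 0.05 the count of 0 probes (limma) became 826 with scaling to the array median, 776 without further scaling and 758 with the value table of the series, in which limma estimated an infinite prior df, that is 1 variance shared by all probes, against 2.44 in the setting of the report. It was 287 with a variance trend and 5 where each of the 4 arrays had S/N over 3. Under those 3 scalings the log2 change of *SOX2* was -1.73, -1.72 and -1.72, and limma's Benjamini-Hochberg adjusted p 4.64e-07, 8.15e-07 and 6.63e-07, *HEY2* had adjusted p of 0.00457, 0.00595 and 0.00581, *NOTCH1* and *HEY1* no longer had an unadjusted p under 0.05, and *DLL3* gained one (0.0275, 0.0277 and 0.0252, limma). With normexp *DLL3* (0.0249) and *NOTCH3* (0.0199) gained one and *HEY1* lost it. With a variance trend *JAG1* had an adjusted p of 0.0427 (limma, Benjamini-Hochberg). *MFNG* and *NOTCH4* also had an adjusted p under 0.05 in those 3 scalings and with the trend. The cause of these changes was not tested. Leaving out 1 array gave 2 to 4 member probes and 7 to 10 other pathway probes at an unadjusted p under 0.05, the lowest counts without *SOX2* knockdown replicate 1. The member counts at that threshold were 3 to 5 under the other settings. Signs changed in some setting for *NOTCH2*, *NOTCH3* and *ATOH1*. They also changed for other named genes, such as *DLL4*, *HES3*, *HEYL*, *NEUROG1* and *NUMB*, whose changes were at most 0.10 in size. *NRARP* (0.21 with all arrays) was below 0 without mock replicate 2 or without *SOX2* knockdown replicate 2. Without *SOX2* knockdown replicate 1 the second *MAML2* probe (-0.32 with all arrays) and the first *NCSTN* probe (-0.19 with all arrays) were above 0 as well. The probes of *NOTCH2* reached 0.0041 with quantile normalization, 0.040 with averaging by gene ID and -0.0099 with normexp, and with 1 array left out they ranged from -0.076 to 0.053, from -0.14 to 0.22 and from -0.025 to 0.14. *NOTCH3* ranged from -0.52 to 0.054 with 1 array left out, and *ATOH1* was -0.029 with normexp. Same-numbered samples deviated in opposite directions (r of -0.48 across probes), so the numbers were not taken as pairs. The replicate block gave 3 member probes at an unadjusted p under 0.05 (limma), *NOTCH1*, *JAG1* and *HEY2*, where 1905 of all 21256 probes had one. It gave 0 probes at an adjusted p of 0.05. The crossed replicate block, added after seeing the data, gave 5 member probes, where 5518 of all 21256 probes had such a p, and 0 at an adjusted p of 0.05. Signals with S/N near 3, such as *DLL1*, *DLL3*, *NOTCH3* and, after its knockdown, *SOX2*, limit what can be said of those genes.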

Other observations

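The other *HES* and *HEY* genes and the proneural genes that HES proteins repress were on the list as well. Of the 6 kept probes of other *HES* and *HEY* genes none had an unadjusted p under 0.05 in limma, where 17.1% of all probes had one (0 at an adjusted p of 0.05 also). With 6 probes, nothing particular to these genes is read from that count. The log2 changes of the 6 probes lay between -0.35 (*HES6*) and 0.10 (*HES3*). Among the proneural genes, *ATOH1*, which encodes a bHLH activator of hair cells and cerebellar granule cells, gave 0.0314 and 0.0320 in mock knockdown and 0.0416 and 0.0621 after *SOX2* knockdown, with S/N over 3 on 3 of 4 arrays (log2 change 0.68, SE 0.23, adjusted p 0.257, limma with Benjamini-Hochberg). It was kept through the *SOX2* knockdown group alone, where it was higher, so its difference is no support for a change. Without the S/N filter its unadjusted p was 0.0596 (limma). No proneural probe was then under 0.05 (0 of 5), where 3918 of all 32886 probes were. Its change was -0.029 with normexp background correction.

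The replicates of each group lay far apart in several pathway genes, of which 3 are given here, singled out after their values were seen. *HEYL*, a relative of *HEY1* and *HEY2*, gave 0.830 and 0.481 in mock knockdown and 0.534 and 0.851 after *SOX2* knockdown. *DLL4*, a ligand known from endothelial cells, gave 0.551 and 0.301 in mock knockdown and 0.340 and 0.554 after *SOX2* knockdown. *NEUROG1*, a proneural gene, gave 7.22 and 4.36 in mock knockdown and 4.85 and 7.16 after *SOX2* knockdown. In each of the 3, mock 1 and *SOX2* knockdown 2 were the higher arrays, and the log2 changes between the groups were 0.09 (SE 0.37), 0.09 (SE 0.40) and 0.07 (SE 0.33). Other genes of the list had the same order, such as *PSEN2* and *NRARP* (0.937 and 0.517 in mock knockdown, 0.644 and 1.01 after *SOX2* knockdown). Across all probes kept, same-numbered samples deviated in opposite directions (r of -0.48), so the order is not particular to these genes.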
